A study of Mus musculus with 8 samples.

Results

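The cytosolic ribosomal protein genes were followed in sorted myeloid cells of the mouse bone marrow. Members were all genes with a probe set carrying exactly 1 symbol that begins with Rpl or Rps and a number, plus Rplp0, Rplp2 and Rpsa. The Rps6k kinases and symbols containing -ps were left out, and each gene was read at its brightest probe set over all 8 arrays. This gave 50 of 18193 measured genes, 26 with Rpl and 24 with Rps symbols, on 106 probe sets. Of the 50, 43 encode canonical ribosomal proteins and 6 are paralogues (Rpl3l, Rpl7l1, Rpl22l1, Rpl39l, Rps4l and Rps27l). Rps19bp1, the remaining member, shares the name pattern only: it encodes a protein that binds Rps19.

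Cells positive for Cd11b, an integrin subunit of granulocytes and monocytes, were sorted from 8-week-old mice on a mixed background of FVB and C57BL6. The 4 control samples had the genotype E2F1-/-2+/+3f/f and the 4 experimental samples Mxcre;E2F1-/-2-/-3f/f, so loss of E2f1 and a floxed E2f3 were common to both. All mice were injected 5 times with 250 µg of the interferon inducer pIpC, and cells were taken 24 h after the last injection. Total RNA (2.5 µg) was labelled with biotin and hybridised to Affymetrix arrays. The Mx promoter that drives Cre responds to interferon. Only experimental samples carried Cre, so effects of Cre and of the E2f genotype cannot be told apart. No label states that each sample is a separate animal, and the p-values reflect only how these samples varied, which could be partly technical.

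Each ribosome carries a large subunit, which joins amino acids, and a small subunit, which reads the mRNA, and both are built from ribosomal RNA and ribosomal proteins. The mRNAs of these proteins are among the most abundant of growing cells. They begin with a tract of pyrimidines (terminal oligopyrimidine or TOP mRNAs) through which the kinase mTORC1 controls their translation. In the granulocyte lineage, early dividing precursors are rich in ribosomes, and these decline as neutrophils mature.

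For 6 members whose values follow, the pyrimidine tract near the annotated start shows the feature they share. Sequences were read from RefSeq (build GRCm38.p6), which held a window of 250 bases before to 50 bases after an annotated start for 44 of the 50 genes. Each line gives 30 bases, 5′ to 3′ on the gene's strand, with the tract in capitals:
Rps18: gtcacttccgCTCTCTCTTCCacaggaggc
Rpl35: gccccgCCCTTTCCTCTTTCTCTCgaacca
Rplp2: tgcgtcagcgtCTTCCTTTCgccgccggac
Rps6: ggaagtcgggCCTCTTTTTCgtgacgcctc
Rpl6: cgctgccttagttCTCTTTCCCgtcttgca
Rps27: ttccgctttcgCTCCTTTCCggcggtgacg
They lie at chr17:33955648-33955677 (minus strand), chr2:39005115-39005144 (minus), chr7:141447636-141447665 (plus), chr4:86857349-86857378 (minus), chr5:121204521-121204550 (plus) and chr3:90213632-90213661 (minus). The tract of Rpl6 begins at base 34 after the annotated start, so by that annotation it is not terminal. The others begin 1 to 7 bases before an annotated start and run across it. A C followed by at least 6 bases that are C or T, searched on the gene's strand in the last 100 bases of the window, was present in 38 of 44 members (86.4%) and in 44.5% of all 27025 genes with a window. The motif CCGGAAG of ETS factors such as Gabpa, searched on both strands of all 300 bases, was in 21 members (47.7%) and in 9.93% of all genes. On its reverse strand this motif begins with pyrimidines and can overlap a tract. The start of transcription in these cells was not measured, and a match describes letters only.

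**Figure D1:**
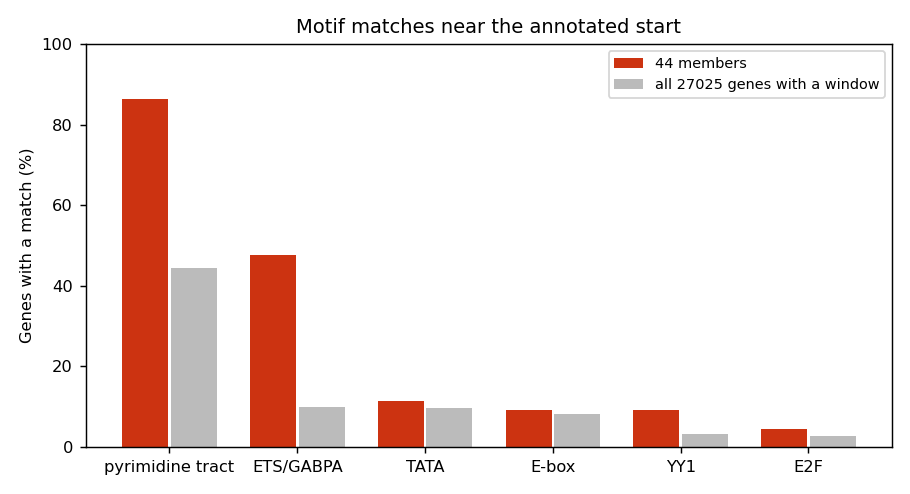
Share of genes (%) with a match of each motif near the annotated start, for 44 members (red) and all 27025 genes with a window (grey). The pyrimidine tract (86.4% against 44.5%) and the ETS motif (47.7% against 9.93%) were more frequent in members, while the E2F motif was rare in both (4.55% against 2.60%).

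The other motifs were searched in the same 300 bases. The E2F motif, taken as TTTGGCGC, TTTCCCGC, TTTCGCGC or TTTGCCGC on both strands, occurred in 2 members, Rpsa and Rps3a1 (4.55%, against 2.60% of all genes). The E-box CACGTG of Myc was in 4 members (9.09% against 8.09%) and AAGATGGC of Yy1, on both strands, in 4 (9.09% against 3.19%). TATAAA on the gene's strand was in 5 (11.4% against 9.77%). In Rpsa the E2F letters, in capitals, lie just after the annotated start at chr9:120127778-120127807 (plus strand):
Rpsa: gccgcccgtccTTTCGCGCtacccggggac
Whether any factor bound these letters was not measured.

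The ribosomal protein genes were slightly higher in the experimental samples. The median difference over the 50 members was 0.17 on the log2 scale, against 0.01 over all genes, and 47 of the 50 lay above 0, against 52.9% of all genes. Rpsa, which encodes a small subunit protein also known as the laminin receptor, was the single member past an adjusted p of 0.05 (limma, Benjamini-Hochberg adjustment over 45037 probe sets). That count was 1 of 50 higher and 0 lower, where 1.53% of all genes passed as higher and 1.95% as lower, so the share of members called was near that of all genes. A count that needs no model gave another picture: in 15 of 50 members all 4 experimental arrays lay above all 4 controls, and in none below, while 5.62% of all genes lay wholly above and 6.79% wholly below. The members were read on the same 8 arrays, so these counts are not separate observations of the genotype. As a mean over all members, experimental replicate 2 (11.09) lay below control replicate 1 (11.11), so the groups overlapped. As a median over members they did not, with 12.67 and 12.64 in the same 2 arrays. By unadjusted p under 0.05, 18 members were higher and Rps16 was lower, against 9.08% of all genes higher and 9.8% lower. With replicate number as a block, 2 members passed, Rpsa and Rps27l, both higher, against 3.16% of all genes passing as higher in that fit.

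**Figure D2:**
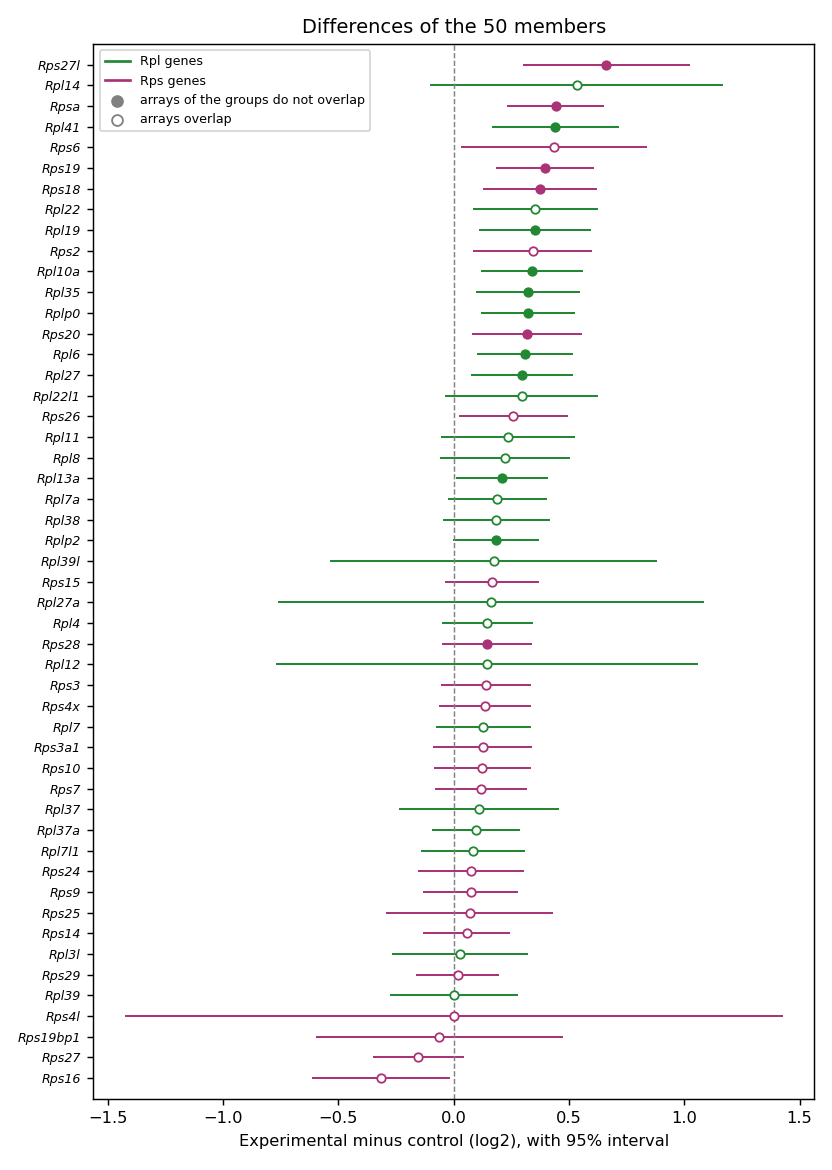
Fitted difference of each of the 50 members (experimental minus control, log2) with its 95% interval, ordered by size, green for Rpl and purple for Rps genes. Filled points mark the 15 members whose experimental arrays all lay above all controls, and 47 points lie above 0.

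By array, the shift was carried by 3 of the 4 experimental samples. For the 34 members with a mean level of 12 or more, the median distance from each gene's control mean was 0.25 in experimental replicate 1, 0.07 in replicate 2, 0.24 in replicate 3 and 0.29 in replicate 4. In controls the same median was 0.05, -0.01, 0.01 and -0.04. Experimental replicate 2 was therefore the lowest of its group and closest to the controls, and it was the lowest experimental array in 38 of the 50 members. It still lay above all controls in 18 members, compared with 36 for experimental replicate 1 and 40 each for replicates 3 and 4. Without it 7 members passed, all higher (Rpsa, Rps27l, Rpl41, Rps19, Rpl19, Rpl10a and Rps6), where 2.51% of all genes passed as higher, and without any other single array none did.

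**Figure D3:**
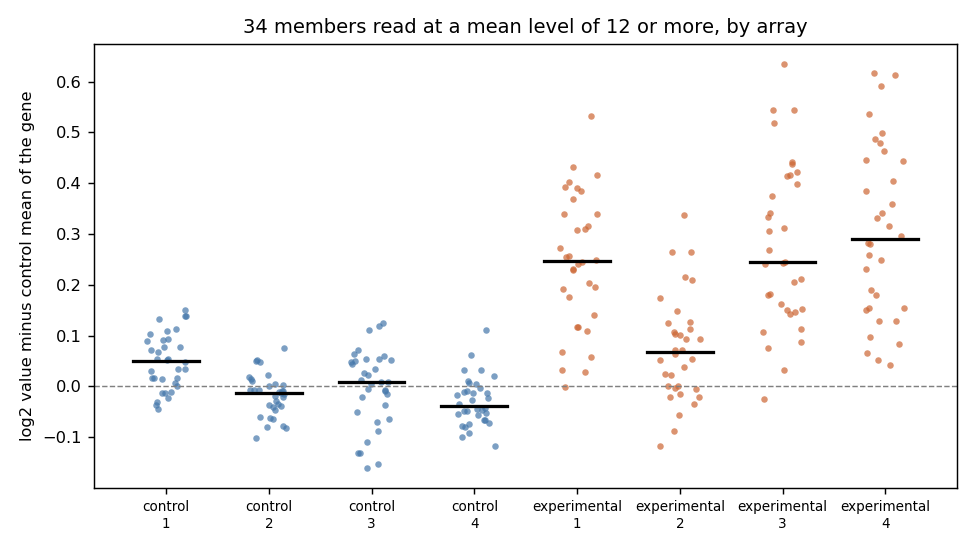
Distance of each array's log2 value from the gene's control mean for the 34 members with a mean level of 12 or more, 1 point per gene, with the median of each array as a black line. The medians of experimental replicates 1, 3 and 4 lie between 0.24 and 0.29, that of experimental replicate 2 at 0.07, and those of the controls between -0.04 and 0.05.

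Rpsa read 13.09, 13.04, 13.20 and 13.02 in control replicates 1 to 4 and 13.50, 13.42, 13.51 and 13.68 in the experimental ones. The lowest experimental array stood above the highest control. The difference was 0.44 ± 0.09 (moderated SE, n = 4 per group), or 1.36-fold with a 95% interval of 1.18 to 1.56 (limma adjusted p = 0.0370; two-sided exact permutation p = 0.0286, the smallest that 4 against 4 arrays can give). Replicates 1 and 2 alone gave 0.40, and replicates 3 and 4 alone 0.48. Leaving out 1 array moved the limma adjusted p to between 0.0349 and 0.118, and the call held only without experimental replicate 2. It was also lost when both probe sets of the gene were averaged (difference 0.22, limma adjusted p = 0.303), the other being very dim (mean level 2.31).

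Rps19, the small subunit gene most often mutated in the inherited anaemia of Diamond and Blackfan, read 12.50, 12.45, 12.47 and 12.35 in controls and 12.87, 12.66, 12.88 and 12.94 in experimental arrays. The groups did not overlap, and the difference of 0.40 ± 0.09 came close to the threshold (limma adjusted p = 0.0572, n = 4 per group). It passed without experimental replicate 2 and in 6 other alternatives, among them code style as a block (0.0402). Of 18 listed genes of that anaemia, 11 were measured as members: 10 had differences above 0 with a median of 0.15, 4 did not overlap (Rps19, Rps28, Rpl27 and Rpl35), and none passed. Rps26, another of them, was 0.26 ± 0.10 higher (limma adjusted p = 0.240), and experimental replicate 2 lay among its controls.

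Rps18, a protein of the small subunit head, had control values of 12.97, 12.75, 12.91 and 12.79 and experimental values of 13.20, 13.07, 13.19 and 13.47, without overlap. The difference was 0.37 ± 0.11 (limma adjusted p = 0.111, n = 4 per group), and 2 further bright probe sets of the gene gave 0.37 and 0.41. Among its dim probe sets 1 had the opposite sign (-0.09). Of 14 listed genes of the head, 10 were measured, 9 above 0 with a median of 0.14, and none passed. Rps20 (0.32 ± 0.11), also of the head, and Rps28 (0.15 ± 0.09) did not overlap between groups. Rps29 was level, at 13.86 to 13.92 in controls and 13.84 to 13.96 in experimental arrays, a difference of 0.02 with a 95% interval of -0.16 to 0.19.

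Rps6, the small subunit protein phosphorylated by S6 kinase, read 8.44, 8.15, 8.39 and 8.41 in controls. Experimental arrays read 8.69, 8.27, 9.01 and 9.15, of which replicate 2 lay within the controls. The difference was 0.43 ± 0.18 (limma adjusted p = 0.251, n = 4 per group), and it passed only without that array. This probe set is dimmer than those of most members, since most other probe sets naming Rps6 carry several symbols and were not used. Dim probe sets with 1 symbol, beside others with several, also represent Rps16 (mean level 2.73), Rpl12 (6.52), Rpl14 (6.32) and Rps27 (6.59). Rpl14 had the second largest difference of all members (0.53 ± 0.28) with overlapping groups (limma adjusted p = 0.379). It read 5.95, 5.88, 6.23 and 6.14 in controls and 6.402, 5.73, 6.94 and 7.26 in experimental arrays, of which replicate 2 was the lowest of all 8. Rps16 fell short of the threshold in the opposite direction (-0.31 ± 0.13, limma adjusted p = 0.257) at a level near the bottom of the arrays.

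In the large subunit all 26 members had differences above 0, with a median of 0.20, and none passed. The 24 members with Rps symbols had a median of 0.13, with 21 above 0. Whether the subunits differ was not tested. Rplp0, the base of the stalk that recruits elongation factors, read 12.997, 12.91, 12.79 and 12.98 in controls and 13.29, 13.18, 13.17 and 13.32 in experimental arrays. Without overlap, it was 0.32 ± 0.09 higher (limma adjusted p = 0.0983, n = 4 per group), or 1.249-fold with a 95% interval of 1.09 to 1.43. Its partner on the stalk, Rplp2, was 0.18 ± 0.08 higher (limma adjusted p = 0.293), also without overlap.

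Rpl41, the smallest ribosomal protein, was very even in controls at 13.38, 13.36, 13.35 and 13.35. Experimental arrays spread from 13.47 in replicate 2 through 13.76 in replicate 1 to 13.99 and 13.97 in replicates 3 and 4. The groups did not overlap, with a difference of 0.44 ± 0.12 (limma adjusted p = 0.0966, n = 4 per group), which passed with code style as a block (0.0481), with array weights (0.0475) and without experimental replicate 2 (0.0225). A second bright probe set gave 0.28. It is 1 of 3 members, with Rps29 and Rpl37a, within 1 log2 unit of the lowest array maximum (14.36), where a change may be compressed.

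**Figure D4:**
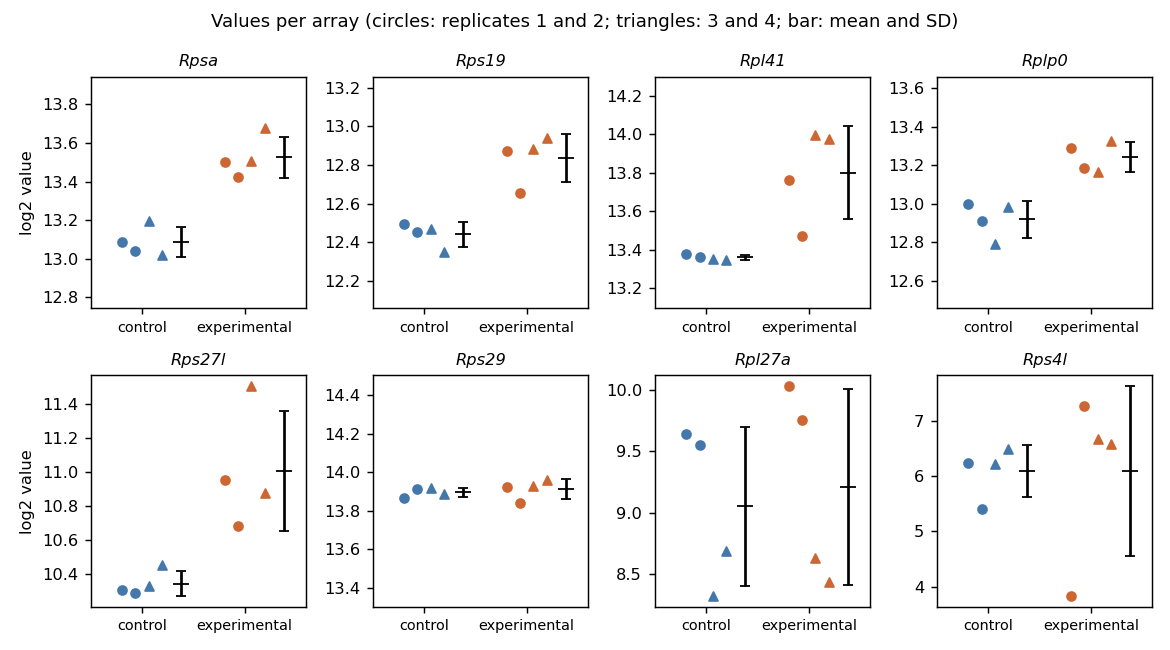
Log2 value of 8 members in each array, with control in blue and experimental in orange, circles for replicates 1 and 2, triangles for 3 and 4, and the mean with its SD beside each group. Groups do not overlap in Rpsa, Rps19, Rpl41, Rplp0 and Rps27l, Rps29 is level, Rpl27a follows the replicate numbers, and Rps4l ranges from 3.83 to 7.27.

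A list of 9 large subunit genes covers the peptide tunnel and the ring around its exit. All 5 measured had differences above 0 with a median of 0.32, and none passed. Rpl35 read 12.50, 12.42, 12.45 and 12.30 in controls and 12.81, 12.59, 12.66 and 12.91 in experimental arrays. That was 0.32 ± 0.10 higher without overlap (limma adjusted p = 0.129, n = 4 per group), and all 6 of its probe sets had differences above 0 (0.06 to 0.42). Rpl19, of the same region, was 0.35 ± 0.11 higher (limma adjusted p = 0.127) with no overlap, and passed without experimental replicate 2. Rpl22 (0.35 ± 0.12) overlapped through experimental replicate 2, and its dimmest probe set had the opposite sign (-0.16). Rpl4 (0.15) and Rpl39 (0.002) completed the measured genes.

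Rpl10a (0.34 ± 0.10), Rpl6 (0.31 ± 0.09), Rpl27 (0.30 ± 0.10) and Rpl13a (0.21 ± 0.09) also separated the groups without passing. Their limma adjusted p-values were 0.108, 0.115, 0.1497 and 0.261, and Rpl10a passed without experimental replicate 2. Rpl11, which with Rpl5 and 5S rRNA forms the particle that binds Mdm2, read 12.16, 12.042, 12.18 and 12.12 in controls and 12.26, 12.035, 12.56 and 12.57 in experimental arrays. Experimental replicates 3 and 4 were high and replicate 2 lay just below the lowest control, so the groups overlapped (0.23 ± 0.13, limma adjusted p = 0.395). Over the 33 uncalled members with a mean level of 12 or more, the upper bound of the 95% interval ran from 1.14-fold to 1.64-fold. Changes of that size are not excluded for them.

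Among the paralogues, Rps27l had the largest difference of all 50 members. It encodes a near copy of Rps27 and is known as a gene induced by p53. Control arrays read 10.30, 10.29, 10.33 and 10.45 and experimental arrays 10.95, 10.68, 11.51 and 10.88. All experimental values were higher, with replicate 3 the highest. The difference of 0.66 ± 0.16 (1.58-fold, 95% interval 1.23 to 2.03, n = 4 per group) missed the threshold (limma adjusted p = 0.0648) but passed with the replicate block (limma adjusted p = 0.0437) and with code style as a block (0.0296). It also passed among probe sets with a mean of at least 6 (0.0469), with array weights (0.0409) and without experimental replicate 2 (0.0317). All 3 of its probe sets were higher (0.43 to 0.66). Rps27 itself, at its dim probe set, read 6.61 to 6.73 in controls and 6.42 to 6.64 in experimental arrays (-0.15 ± 0.09, limma adjusted p = 0.417). The difference between the pair was not tested.

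Of the other paralogues, Rpl22l1 was 0.29 ± 0.15 higher with overlapping groups (limma adjusted p = 0.345), and Rpl7l1 gave 0.08 ± 0.10. Rpl3l, known from muscle, had a mean level of 2.99 and Rpl39l, known from testis, one of 4.57, both below the array medians of 5.01 to 5.04, and their differences (0.03 and 0.17) have no reliable sign. Rps4l varied most: it read 6.24, 5.41, 6.21 and 6.49 in controls and 3.83, 7.27, 6.67 and 6.58 in experimental arrays. Experimental replicate 1 held the lowest and replicate 2 the highest value of all 8, with a mean difference of 0.001 ± 0.64. Rps19bp1, the member that is not a ribosomal protein, was at -0.06 ± 0.24.

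Some members followed the replicate numbers rather than the genotype. Sample codes in the labels begin with a digit in replicates 1 and 2 and with a letter in replicates 3 and 4 of both groups. Rpl27a read 9.64, 9.55, 8.32 and 8.69 in controls and 10.03, 9.75, 8.63 and 8.43 in experimental arrays, so replicates 3 and 4 were lower in both. Within controls the difference of replicates 3 and 4 from 1 and 2 was -1.09, while the genotype difference was 0.16 ± 0.41. Over all 50 members the genotype median was 0.09 within replicates 1 and 2, with 40 members above 0, and 0.29 within replicates 3 and 4, with 47 above 0.

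Several members had a dimmer probe set that read higher. Rps3, a small subunit head protein with a role at the mRNA entry site, gave 0.14 ± 0.09 at its brightest probe set, and 0.71 ± 0.18 at a dimmer one (mean level 7.60), where all experimental arrays lay above all controls. The third Rps3 probe set, also dim, gave -0.05 ± 0.14. Rps20 gave 0.63 ± 0.17 at a probe set below the array medians (mean level 3.81), where a difference has no reliable sign, again without overlap, and Rpl13a 0.56 ± 0.16 at one with a mean level of 10.41. None passed (limma adjusted p = 0.0801, 0.0951 and 0.0993), and each passed with the replicate block (limma adjusted p = 0.0343, 0.0185 and 0.0376). Over all 106 probe sets of members, 95 had differences above 0 with a median of 0.17, and 24 separated the groups, all higher. Of all 45037 probe sets, 50.6% lay above 0 and 4.64% separated the groups upward.

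A further 110 probe sets carry several symbols of which at least 1 is a ribosomal protein gene, and were no members. They cannot be tied to 1 gene and were read as an additional set. Their median was 0.17, 98 of 110 lay above 0, 25 separated the groups upward and none downward, and 2 passed, both higher, against 1.03% of all probe sets. With the replicate block 7 passed, all higher, against 2.22% of all probe sets. Of the 2, 1 averaged 8.62 in controls and 9.27 in experimental samples (0.65 ± 0.11, limma adjusted p = 0.0208). The other averaged 11.06 and 11.69 (0.63 ± 0.13, limma adjusted p = 0.0366). Probes can be shared between transcripts for members too, since 32 of the 50 were read at probe sets of the kinds _a_at, _s_at or _x_at.

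The members were also read against other bright genes, which were not matched in level beyond a shared cut at 12. All 34 members with a mean level of 12 or more were above 0 (median 0.20), and 14 of them separated the groups. Of the 173 other genes at that level, 53 were above 0, with a median of -0.08, 3 separated the groups upward and 22 downward. The 16 members under that level had a median of 0.10 with 13 above 0. The processing (RMA) equalises the distributions of arrays, so bright members and other bright genes do not vary independently. The contrast between them is therefore no separate evidence of a rise.

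**Figure D5:**
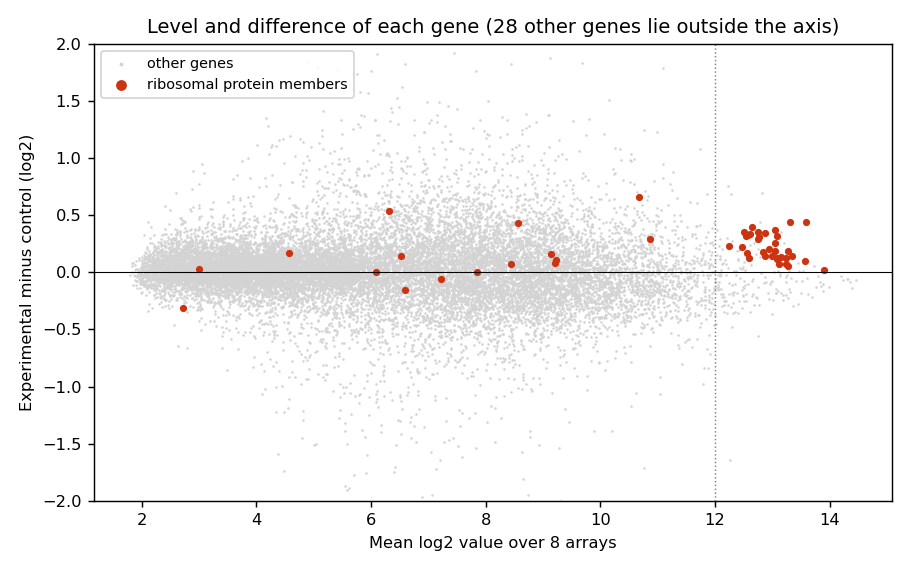
Mean log2 value over 8 arrays against the fitted difference (experimental minus control, log2) for each gene, members in red and other genes in grey, with a dotted line at a level of 12. The 34 members right of the line all lie above 0, while 53 of the 173 other genes there do.

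Genes that share the TOP start were read from a list of 18, of which 16 were measured. Of these, 15 had differences above 0 with a median of 0.19, none passed and none separated the groups. Npm1 (0.43 ± 0.22), a nucleolar chaperone, and the elongation factor genes Eef2 (0.37 ± 0.17) and Eef1b2 (0.35 ± 0.14) had the largest values. Eef1a1 (0.05), Pabpc1 (0.01) and Tpt1 (-0.03), read at 13.10 to 13.80, stayed near 0. Fau, a ribosomal protein gene outside the name pattern, was at -0.03 ± 0.09.

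Genes that control the production of ribosomal proteins were read from further lists. Of 12 measured genes of mTORC1 and TOP translation, 4 were above 0 and none passed, with a median of -0.08. Its brightest genes, the helicase gene Eif4a1 and the mTORC1 activator Rheb, were at 0.14 ± 0.23 and -0.18 ± 0.12. Larp1, which binds the TOP tract, was at 0.44 ± 0.22 and Tsc1, an inhibitor of the pathway, at -0.33 ± 0.09 without overlap (limma adjusted p = 0.349 and 0.0943). Of 9 transcription regulators, 8 were below 0 with a median of -0.30, and 5 lay wholly below the controls. Over all 18193 genes, 8562 were below 0 and 6.79% lay wholly below. Gabpb1, the partner of the ETS factor Gabpa, fell from 7.68 ± 0.15 to 6.86 ± 0.33 (SD, n = 4 per group), a difference of -0.82 ± 0.16 (limma adjusted p = 0.0312). It passed without experimental replicate 1, 2 or 3 and not without any other array (limma adjusted p = 0.0322 to 0.0940 over those fits). Sp1 (-0.41 ± 0.09), Zfx (-0.46 ± 0.12), Yy1 (-0.36 ± 0.10) and Mxd1 (-0.30 ± 0.11) separated the groups without passing, and Myc was at 0.14 ± 0.27. Of the 4 chaperones dedicated to ribosomal proteins 3 were above 0 and none passed, with Heatr3 at 0.63 ± 0.30, Grwd1 at 0.23 ± 0.29 and Aamp at -0.12 ± 0.15. Mdm2, the p53 ligase that free Rpl11 binds, was at 0.11 ± 0.09, whereas the p53 target Cdkn1a rose by 2.25 ± 0.18 (limma adjusted p = 0.00113) and kept its call whichever of the 8 arrays was dropped.

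Several measures of cell content and 1 of 2 ratios of RNA integrity moved with the groups, and their part in the shift of the ribosomal protein genes was not tested. In bulk RNA, more cells of a type and more RNA per cell cannot be told apart. For single genes in what follows, fell and rose mean past an adjusted p of 0.05 (limma). Of all genes, 1.95% passed as lower and 1.53% as higher. All 12 B cell and all 8 mature neutrophil genes measured lay below 0, and all 6 early granulocyte genes above 0. Below 0 lay also 5 of 6 megakaryocyte and 7 of 8 dendritic cell genes. Sort markers were high, with Lyz2, S100a8, S100a9, Camp, Ltf, Ngp and Lcn2 above 14 and Itgam at 11.56, and the mean of 12 myeloid markers was 13.46 to 13.62 in controls and 13.45 to 13.51 in experimental arrays. The mean of 8 mature neutrophil markers was 11.59 to 11.92 in controls and 10.87 to 11.14 in experimental arrays (Clec4d, Il1b, Ccl6 and Csf3r fell, by 0.65 to 1.71), and that of 6 early granulocyte markers 11.08 to 11.93 and 11.65 to 12.22 (Ms4a3 rose, by 0.83, and with the replicate block Ctsg too, limma adjusted p = 0.0321). B cell markers (12 genes, of which 7 fell, among them Cd79a, Spib, Ly6d and Ms4a1 with differences of -2.82 to -1.57) averaged 7.09 to 7.97 and 5.67 to 6.54, with Pax5 at 5.19 and 4.84, and megakaryocyte markers (6 genes, of which Pf4, Ppbp and Tubb1 fell) 6.46 to 7.13 and 5.87 to 5.93. Dendritic cell markers (8 genes, of which Siglech, Cd209a and Cd74 fell) averaged 7.88 to 8.04 and 6.84 to 7.51. With 1 array dropped, Cd74 kept its call only without control replicate 4 or experimental replicate 2. Tubb1 kept it only without control replicate 1 or experimental replicate 2 or 3. Ms4a3 kept it only without control replicate 3 or experimental replicate 2 or 3. Ccl6 and Siglech lost it without control replicate 2, and some B cell calls were lost too. The other genes named here as falling kept theirs in each such fit. Means of monocyte, T and NK, erythroid, and eosinophil, basophil and mast cell markers overlapped between the groups, as did stem and progenitor markers (7.02 to 7.36 and 6.36 to 7.04). Among them Epx (0.91 ± 0.12, limma adjusted p = 0.00672) and Siglecf (1.28 ± 0.25, limma adjusted p = 0.0325), both eosinophil markers, rose. Their list of 6 measured genes had 3 above 0 and 3 below, with a median of -0.04, and 1 lay wholly below the controls. Siglecf kept its call only without experimental replicate 2, 3 or 4, and Epx kept it whichever array was dropped. The T and NK list had 5 of 9 measured genes above 0 and 4 below. With the replicate block Nkg7, Gzmb and Alas2 also passed as higher and Gata2 and Sox4 as lower (limma adjusted p = 0.0343, 0.0116, 0.0342, 0.0494 and 0.0102), as did Ebf1 and Itga2b of the lists that fell (0.0124 and 0.0357). The log2 ratio between the 3′ and 5′ probe sets for beta-actin, a measure of RNA integrity, was 0.27 to 0.32 in controls. In experimental replicates 1 to 4 it was 0.43, 0.34, 0.46 and 0.54, so replicate 2 was the lowest of its group in this ratio as in its ribosomal protein values. The same ratio for Gapdh overlapped between the groups, at -0.14 to -0.09 in controls and -0.16, -0.14, -0.11 and 0.03 in experimental replicates 1 to 4, and there replicate 1 was the lowest. Experimental replicate 2 was also the lowest of its group in the mean of early granulocyte markers (11.65, the others 12.06, 12.02 and 12.22). The same held for its means of monocyte, B cell, T and NK, stem and progenitor, and dendritic cell markers. It did not hold for mature neutrophil, myeloid, erythroid, megakaryocyte, or eosinophil, basophil and mast cell markers. As a check of the labels, E2f2 was lower in experimental samples at both probe sets (-0.66, limma adjusted p = 0.0351, and -0.55, limma adjusted p = 0.107). It still averaged 7.26 and 9.31 there. E2f3, floxed in both groups, was not lower at either probe set: at 1 all experimental arrays lay above all controls (0.29 ± 0.11, limma adjusted p = 0.201), and the other gave 0.11 ± 0.11 (limma adjusted p = 0.657). E2f1, lost in both groups by genotype, was read at mean levels of 7.15, 6.81 and 3.95. Each of its probe sets was higher in experimental samples (0.58, 0.48 and 0.24) and none passed (limma adjusted p = 0.236, 0.345 and 0.318). Whether any of these probe sets lies in a deleted part was not analysed here, so E2f1 and E2f3 give no check of their loss.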

How the data were processed

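The deposited table holds log2 values per probe set, which the authors made with RMA per the submitters' processing notes, with no version given. RMA corrects background, equalises the distributions of arrays and summarises probes, so a change shared by most bright genes is removed and values near the array maximum are compressed. No genome build is given in these sources. After 64 control probe sets were left out, 45037 were fitted in limma 3.58.1 (R 4.3.3; lmFit, then eBayes, with group as the only term) as experimental minus control, and Benjamini-Hochberg adjusted p under 0.05 was the threshold. Each difference has a moderated SE, and the number of arrays limits the precision. A gene was represented by its brightest probe set with 1 symbol, and all 50 members matched the RefSeq gene table. The fit was tested on simulated data.

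Same-numbered arrays of the groups deviated together (correlations of 0.20 to 0.26 over probe sets in each of 4 pairs), which was taken as pairing by the rule used (each above 0.1). Arrays of the same code style but another number correlated as much (0.14 to 0.26), and those of the other code style at -0.27 to -0.13. Over members alone, every pair of the same code style but another number correlated more (0.49 to 0.77) than any pair of the same number (0.09 to 0.33). The numbers therefore cannot be told apart from code style as the shared factor. The block's value is printed where it changes a call of a gene on the lists. The members and lists were chosen with earlier results of these data known. Named members were those past the threshold, the 8 largest rises, the largest falls (8 were allowed and 3 members lay below 0), those without overlap, and a list of landmark proteins and paralogues. From other lists, the rule took up to 4 genes past the threshold, else the 2 brightest; the latter were left unnamed for lists of other cell types. Others (Rps29, Rpl12, Rpl27a, Rpl37a, Rpl39, Rpl4, Rps26, Rps3, Rps3a1 and, outside the members, Pabpc1, Npm1, Eef2, Eef1b2, Larp1, Tsc1, Sp1, Zfx, Yy1, Mxd1, Myc, Mdm2, Heatr3, Pax5, Ctsg, Ebf1, Nkg7, Gzmb, Alas2, Itga2b, Gata2, Sox4, Itgam and the sort markers, as well as dimmer probe sets) were chosen after their values were seen. Of 198 genes on 24 lists, 163 were measured. Alternatives were median centring, a quantile normalization, 2 filters on level, a trended and robust variance, weights per array, a block for replicate number or for code style, single arrays left out, replicate pairs alone, other choices of a gene's probe set, and omission of the brightest members.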

Additional observations from a re-analysis of the deposited data

Results flagged for a closer look

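In 4 probe sets, 1 array stood apart from the other 3 of its group by Dixon's test, with 5 such arrays among 108 groups tested, where chance gives about 1 in 20. Control replicate 2 was low in Rps6 (8.15, others 8.39 to 8.44) and in Rps25 (8.21, others 8.46 to 8.50). Control replicate 1 was high in Rps3a1 (13.32, others 13.10 to 13.13). At a second Rps9 probe set control replicate 2 read 7.07 where the other controls read 10.75 to 11.18, and experimental replicate 3 read 10.30 where the others of its group read 11.27 to 11.38. The brightest probe set of Rps9, which represents the gene, gave 13.05 to 13.32 in controls and 13.21 to 13.35 in experimental arrays.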

How the results depend on the processing

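The number of members called was 1 in the fit as reported and changed with the setting: 2 among probe sets above the median level, 3 among those averaging 6 or more, 2 with trended and robust variance, 4 with array weights, 2 with the replicate block, 4 with code style as a block, 0 within replicates 1 and 2 or 3 and 4 alone, and 0 to 7 with 1 array left out. All these calls were higher. Calls over all 18193 genes grew too: 278 passed as higher in the fit as reported (1.53%), 574 with the replicate block (3.16%) and 649 with code style as a block. For the filters on level, the trended and robust variance and the array weights, the share of all genes is not given here. The median difference of members stayed above 0 in every alternative and was 0.29 within replicates 3 and 4. The number of probe sets called, 1162 as reported, was 2277 with the replicate block, 2582 with code style as a block, 130 within replicates 1 and 2, 418 within replicates 3 and 4, and 395 to 1744 with 1 array left out. The number of genes called, 632 as reported, was 1124, 1282, 76 and 261 in the same settings and 239 to 915 with 1 array left out. The cause of these changes was not tested, but settings with fewer arrays have less precision.

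The sign of 13 members changed in some alternative. Within replicates 1 and 2 alone this held for Rpl12 (-0.19), Rpl37 (-0.14), Rpl39 (-0.0224), Rps14 (-0.0346), Rps25 (-0.11), Rps29 (-0.0076) and Rps4l (-0.28), and within replicates 3 and 4 alone for Rpl3l (-0.15) and Rps19bp1 (0.32). Quantile normalization turned Rpl3l (-0.00133) and Rps4l (-0.0124), and array weights turned Rpl39 (-0.0199) and Rps19bp1 (0.0359). Another choice of probe sets turned Rpl22 (-0.16) and Rps29 (-0.00725) at the most variable one, Rpl27a (-0.0426) at the mean, and Rps18 (-0.0858) at those ending in _at alone. With 1 array left out, the ranges that cross 0 were Rpl12 (-0.16 to 0.59), Rpl27a (-0.11 to 0.42), Rpl37 (-0.0234 to 0.21), Rpl39 (-0.0621 to 0.0946), Rpl39l (-0.12 to 0.39), Rpl3l (-0.0400 to 0.0911), Rps19bp1 (-0.26 to 0.15), Rps25 (-0.0398 to 0.22) and Rps4l (-0.39 to 0.75). Of 1021 values of single members over the alternatives, 952 kept direction and side of the threshold.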
